A study of Mus musculus with 18 samples.

Results

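Of 284 mouse genes whose symbols are Zfp and a number, 138 are solitary: the start of each lies more than 100 kb from the start of every other gene of that name pattern in the deposited ES cell table of 17818 genes. The rule uses position and name alone, with no expression or chromatin value, but it was set with earlier results of these data known. Distance alone gave 142 solitary genes, and 4 of these (among 6 genes left out by name) were set aside. The other 140 genes of the pattern have a neighbour of it within 100 kb and are called clustered here. The median distance of a solitary gene to its nearest neighbour of the pattern was 3305.746 kb. Just inside the limit stood Zfp263, 103.13 kb from Zfp174, Zfp560 at 107.569 kb and Zfp60 at 111.466 kb. Just outside stood Zfp868 at 91.354 kb, and Zfp426 and Zfp846, which lie 88.579 kb from each other. Zinc finger genes of other names do not count in the rule, and 8 solitary genes have one within 100 kb, among them Zfp534, Zfp560 and Zfp97. The 138 genes lie on 20 chromosomes. In the RefSeq reference the transcripts of 127 carry the same symbol, those of 7 another symbol and those of 4 none, among them Zfp353. Their median span was 18.952 kb, against 13.562 kb for the clustered genes and 19.783 kb for all genes.

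Zinc finger proteins of the C2H2 kind bind DNA, RNA or other proteins through small folds held together by zinc. Many genes of the clustered families add a KRAB box, which binds the corepressor TRIM28 (KAP1); TRIM28 in turn brings SETDB1, which places the repressive histone mark H3K9me3. The name Zfp followed by a number gives no function: it also covers ubiquitin ligases, mRNA decay factors, promoter-bound activators and partners of chromatin enzymes. Which solitary genes encode a KRAB box was not analysed here.

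The study removed Trim28 from mouse cells of the C57BL/6 strain with a Cre recombinase induced by 4-hydroxytamoxifen. RNA came from knockout ES3 cells, an embryonic stem cell line grown on gelatin in serum with LIF and taken 4 days after induction, and from wild-type ES3 cells cultured for 4 days. RNA also came from knockout embryonic fibroblasts (MEFs), taken 5 days after induction and described as dividing more slowly, and from wild-type MEFs at 5 days. H3K9me3 and KAP1 chromatin immunoprecipitation was done in knockout and wild-type ES3 cells at 4 days, a stage at which the labels describe H3K9me3 as reduced but still present. The ES table names its columns only knockout and wild type, and they were read as the ES3 pair because the remaining ES pair in the study is a knockdown. Each group had 1 library, made from duplicate cultures pooled before extraction, so no spread between replicates exists and no difference could be tested. A gene was called higher or lower in the knockout by size alone, at 2-fold or more on RPKM + 1 (reads per kilobase of transcript and per library depth, plus 1), and measured where either library held at least 1 RPKM.

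Trim28 was at 37.2 RPKM in knockout ES3 cells, against 1051 RPKM in wild type, and at 5.84 RPKM in knockout MEFs, against 62.8 RPKM in wild type. All 10 primitive endoderm markers were higher in knockout ES3 cells, against 12.5% of all measured genes. Their summed levels were 1467 RPKM in the knockout and 66.7 RPKM in wild type. Of the 10, 5 were measured only through the knockout and could only differ upwards. Of 6 ES cell markers 3 were lower, against 3.18% of all measured genes, with sums of 1019 RPKM in the knockout and 1948 RPKM in wild type. Fibroblast markers summed to 317 RPKM in knockout ES3 cells and 53.3 RPKM in wild type, mostly Vim. Leukocyte markers summed to 90.6 RPKM in knockout ES3 cells and 173 RPKM in wild type: Laptm5 was lower (65.0 RPKM in the knockout, 150 RPKM in wild type, −1.19), Cd68 was at 25.1 and 23.1 RPKM in knockout and wild type, and Ptprc and Csf1r were under 1 RPKM in both. In MEFs all 6 fibroblast markers were measured, with Postn lower (142 RPKM in the knockout, 421 RPKM in wild type, −1.56). ES markers summed to 1.79 RPKM in knockout MEFs and 1.04 RPKM in wild type, nearly all Nanog (1.65 RPKM in the knockout, 0.967 RPKM in wild type), and Pou5f1, Zfp42 and Tdgf1 were listed at 0 in both. Leukocyte markers summed to 30.9 RPKM in knockout MEFs and 25.3 RPKM in wild type, with Cd68, Laptm5 and Csf1r measured. Primitive endoderm markers summed to 583 RPKM in knockout MEFs and 775 RPKM in wild type. Most of this was Col4a1, Col4a2 and Lamb1, at 249, 217 and 110 RPKM in the knockout and 347, 277 and 141 RPKM in wild type. Gata4, Sox17, Sox7, Lama1 and Cubn were under 1 RPKM in both MEF libraries. Fewer cells of a type and less RNA per cell cannot be told apart in such bulk samples, and the part of these shifts in the values below was not tested.

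Promoters of 4 solitary genes are shown because they differ in the chromatin found at the start. The start of Zfp629 lay inside an H3K9me3 region found in wild type alone, the start of Zfp534 inside H3K9me3 regions of both conditions, and Zfp488 had a wild-type-only region 0.540 kb upstream. Zfp598, which has no region near its start, is one of the highest expressed of the genes. Sequences are from RefSeq (GRCm38.p6), 250 bases before to 50 after the start, 5′ to 3′ on the gene's strand; the deposited regions are on mm9, so the promoters were matched by symbol and not by position. Capitals mark letters of GGGCGG or CCAAT on either strand.
Zfp629 (chr7:127615223-127615522, minus strand): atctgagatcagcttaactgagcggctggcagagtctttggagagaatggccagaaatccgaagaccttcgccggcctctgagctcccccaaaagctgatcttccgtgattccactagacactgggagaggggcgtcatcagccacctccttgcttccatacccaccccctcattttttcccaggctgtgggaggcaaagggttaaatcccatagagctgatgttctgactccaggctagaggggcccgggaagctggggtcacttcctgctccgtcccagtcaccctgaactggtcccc
Zfp534 (chr4:147702582-147702881, minus strand): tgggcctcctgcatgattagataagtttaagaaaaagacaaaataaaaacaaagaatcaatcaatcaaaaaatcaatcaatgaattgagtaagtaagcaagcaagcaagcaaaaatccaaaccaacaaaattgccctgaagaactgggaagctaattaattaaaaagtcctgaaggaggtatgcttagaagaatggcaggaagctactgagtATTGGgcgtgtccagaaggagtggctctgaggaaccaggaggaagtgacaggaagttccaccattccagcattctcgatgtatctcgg
Zfp488 (chr14:33978715-33979014, minus strand): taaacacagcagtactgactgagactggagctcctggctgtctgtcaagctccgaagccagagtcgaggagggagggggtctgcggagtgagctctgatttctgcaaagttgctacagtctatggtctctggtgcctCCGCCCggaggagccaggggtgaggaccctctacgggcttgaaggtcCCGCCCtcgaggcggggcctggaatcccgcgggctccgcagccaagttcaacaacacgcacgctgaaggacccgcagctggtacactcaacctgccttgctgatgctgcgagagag
Zfp598 (chr17:24669437-24669736, plus strand): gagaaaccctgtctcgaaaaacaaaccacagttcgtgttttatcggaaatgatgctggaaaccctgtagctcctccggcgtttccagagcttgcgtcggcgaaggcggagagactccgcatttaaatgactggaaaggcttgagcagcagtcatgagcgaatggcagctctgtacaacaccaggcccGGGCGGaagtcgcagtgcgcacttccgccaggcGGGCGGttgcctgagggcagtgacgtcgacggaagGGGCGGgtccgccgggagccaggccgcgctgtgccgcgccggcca
The Zfp598 promoter holds 29 CpG dinucleotides and 3 GGGCGG boxes, and that of Zfp488 holds 16 CpG and 2 such boxes. The Zfp629 promoter holds 8 CpG and none of the motifs searched. That of Zfp534 has 3 CpG, a G and C content of 40% and 1 CCAAT box.

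Promoters were matched for 108 of the 138 solitary genes. Their median G and C content was 59.0%, against 54.3% for 117 clustered genes and 59.0% for the 13852 matched genes of the whole table. Their median CpG number was 18, against 13 for clustered genes and 18 for all. Solitary genes thus had the same medians as genes in general, and clustered genes had lower ones. Motif letters were searched on both strands, and no motif contains the letters of another. GGGCGG, the box of the SP and KLF factors, occurred in 52.8% of solitary, 42.7% of clustered and 56.2% of all promoters. CCGGAAG (ETS factors) occurred in 24.1% of solitary, 21.4% of clustered and 14.2% of all promoters. AAGATGGC (YY1) occurred in 9 solitary promoters, 8.33%, against 3.42% of clustered and 3.78% of all. GCATGCGC (NRF1) occurred in 4.63% of solitary, 9.40% of clustered and 4.37% of all promoters. CCAAT occurred in 41.7% of solitary, 42.7% of clustered and 38.5% of all, and TATAAA in 8.33% of solitary, 6.84% of clustered and 9.46% of all. TGACGTCA, the cyclic AMP response element, occurred in 4.63% of solitary, 3.42% of clustered and 2.77% of all. These are matches of letters and say nothing of binding.

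In ES3 cells most solitary Zfp genes differed little between the libraries. Of 138 genes, 121 were measured, 9 were higher in the knockout, 2 were lower and 110 lay within 2-fold. The 9 higher genes were 7.44% of those measured, against 12.5% of all 12023 measured genes, and the 2 lower genes were 1.65%, against 3.18% of all. Among the measured genes, 11 passed only through the knockout library and 2 only through wild type; 3 of the 9 higher genes are among the 11 and could only differ upwards. The median log2 ratio of knockout to wild type was 0.06, against 0.17 for 111 measured clustered genes, of which 1 was higher and 1 lower, and 0.08 for all genes. Within 0.5 of zero on that scale stood 81 genes (66.9%), against 59.4% of all genes. Genes of mean level under 5 RPKM had a median of 0.22 (61 genes; all genes 0.28), and genes at 5 RPKM or more had a median of −0.12 (60 genes; all genes −0.02).

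**Figure D1:**
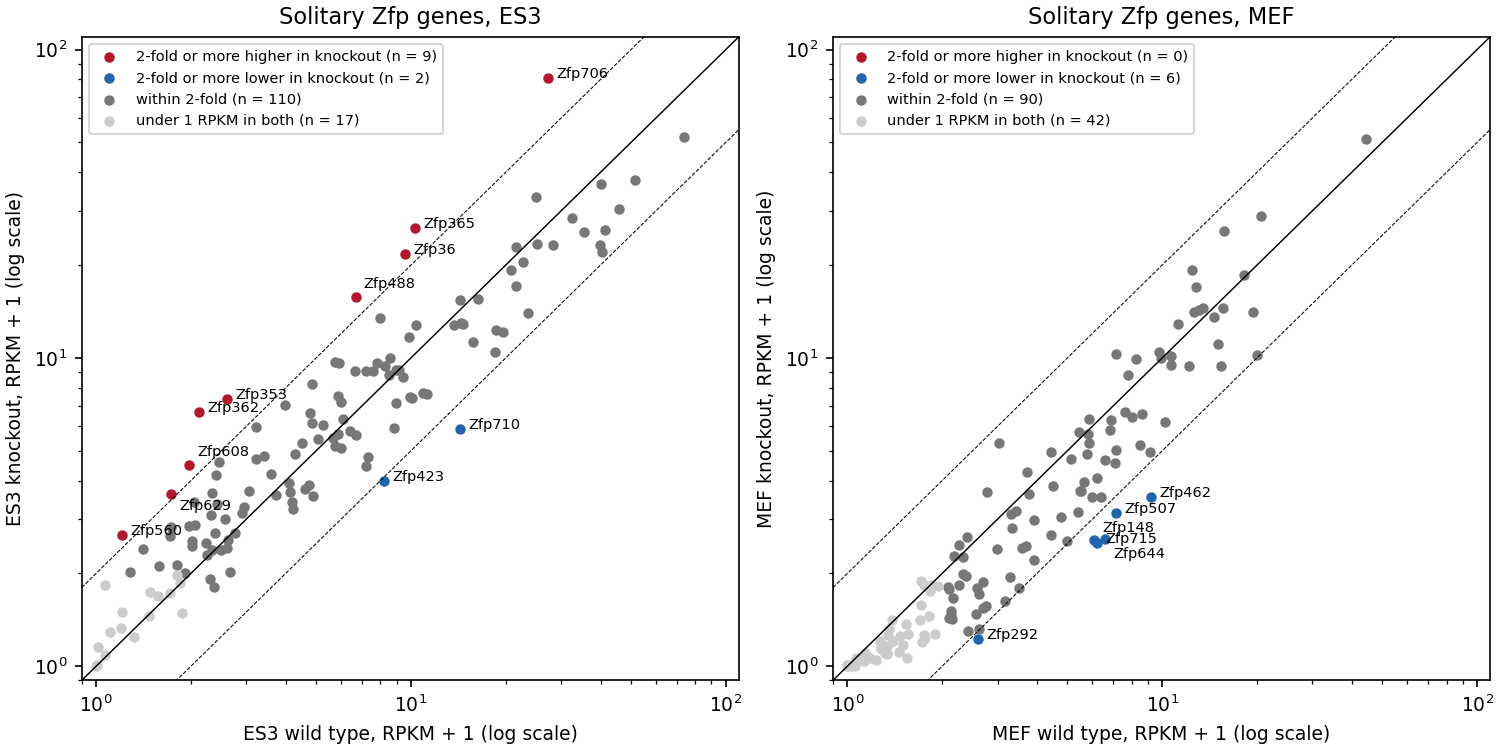
Knockout (vertical) against wild-type (horizontal) RPKM + 1 on log axes, 1 point per solitary Zfp gene, in ES3 cells (left) and MEFs (right); the solid line marks equal levels and dashed lines mark 2-fold. In ES3 cells 9 genes stand above and 2 below the 2-fold lines; in MEFs 0 stand above and 6 below.

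The 9 higher genes differed in level. Zfp362 (mm9 chromosome 4, 128450329 to 128483289) was at 5.67 RPKM in knockout ES3 cells and 1.12 RPKM in wild type, a log2 ratio of 1.65. Zfp706 (chromosome 15, 36930384 to 36937073), known in mouse ES cells as a factor needed to leave self-renewal, was at 80.0 RPKM in the knockout and 26.3 RPKM in wild type (1.57). It was the highest of the 138 genes in the knockout library. Zfp353 was at 6.36 RPKM in the knockout and 1.61 RPKM in wild type (1.49), and Zfp365, whose human counterpart acts in genome stability, at 25.4 RPKM in the knockout and 9.33 RPKM in wild type (1.35). Zfp488, a factor of oligodendrocyte differentiation, was at 14.8 RPKM in the knockout and 5.67 RPKM in wild type (1.25). Zfp36, which encodes tristetraprolin, a protein that binds AU-rich mRNAs and promotes their decay, was at 20.8 RPKM in the knockout and 8.60 RPKM in wild type (1.18). The other 3 were low and measured only through the knockout: Zfp608 at 3.50 RPKM in the knockout and 0.970 RPKM in wild type (1.19), Zfp560 at 1.67 RPKM in the knockout and 0.209 RPKM in wild type (1.14) and Zfp629 at 2.63 RPKM in the knockout and 0.730 RPKM in wild type (1.07). Below 2-fold came Zfp185 with a ratio of 0.90, Zfp319 with 0.89, Zfp37 with 0.81 and Zfp318 with 0.79, all under 10 RPKM in both libraries.

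The 2 lower genes were Zfp710, at 4.89 RPKM in the knockout and 13.3 RPKM in wild type (−1.28), and Zfp423, an adipocyte and neural development regulator, at 3.00 RPKM in the knockout and 7.23 RPKM in wild type (−1.04). Zfp296, a gene of the ES cell network, followed within 2-fold, at 21.1 RPKM in the knockout and 39.4 RPKM in wild type (−0.87). Zfp142 had a ratio of −0.83, Zfp740 of −0.78, Zfp462 of −0.75, Zfp652 of −0.70, Zfp516 of −0.69, Zfp532 of −0.66 and Zfp367 of −0.61. Zfp532 and Zfp740 were among the 8 most abundant of the genes in wild type.

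In MEFs the solitary genes stood lower in the knockout than genes in general. Of 138, 96 were measured, 0 were at least 2-fold higher (0.981% of all 10804 measured genes) and 6 were at least 2-fold lower (6.25%, against 4.84% of all). Measured only through wild type were 22 of the 96, and 0 only through the knockout. Over all 10804 measured genes these counts were 587 and 195. The 22 could only differ downwards, and Zfp292, 1 of the 6 lower genes, is among them. The median and the share below 0 given next include the 22. The median log2 ratio was −0.34, against −0.28 for 81 measured clustered genes, of which 0 were higher and 3 lower, and 0.00 for all genes. Of the 96, 72 (75.0%) had a ratio below 0, against 49.7% of all. At mean levels under 5 RPKM the median was −0.52 (61 genes), against −0.20 for all genes at that level; at 5 RPKM or more it was −0.10 (35 genes), against 0.13. MEF ratios fell with gene span over all genes (Spearman −0.54, a description over genes of 1 library pair) and over the solitary genes (−0.52). After centring within 20 bins of span, the median of the solitary genes was −0.36 and that of the clustered genes −0.40.

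The 6 lower genes in MEFs were all under 10 RPKM in both libraries. Zfp462 was at 2.54 RPKM in knockout MEFs and 8.21 RPKM in wild type (−1.38; −0.93 after span centring). Zfp644 was at 1.58 RPKM in the knockout and 5.59 RPKM in wild type (−1.36; −0.89 centred). Both encode proteins that associate with the H3K9 methyltransferases EHMT1 and EHMT2. Zfp715 was at 1.50 RPKM in the knockout and 5.22 RPKM in wild type (−1.31; −1.39 centred), and Zfp507 at 2.14 RPKM in the knockout and 6.12 RPKM in wild type (−1.18; −1.01 centred). Zfp148, a promoter-binding regulator, was at 1.56 RPKM in the knockout and 5.06 RPKM in wild type (−1.24; −0.80 centred), and Zfp292 at 0.223 RPKM in the knockout and 1.61 RPKM in wild type (−1.09; −0.70 centred). Zfp715 and Zfp507 thus passed 2-fold with and without span centring, which adds Zfp526, Zfp62 and Zfp654. The largest ratios above 0 were those of Zfp296 (4.30 RPKM in the knockout, 2.02 RPKM in wild type, 0.81), Zfp219 (0.72), Zfp358 (0.64), Zfp593 (0.53), Zfp622 (0.49) and Zfp775 (0.41).

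**Figure D2:**
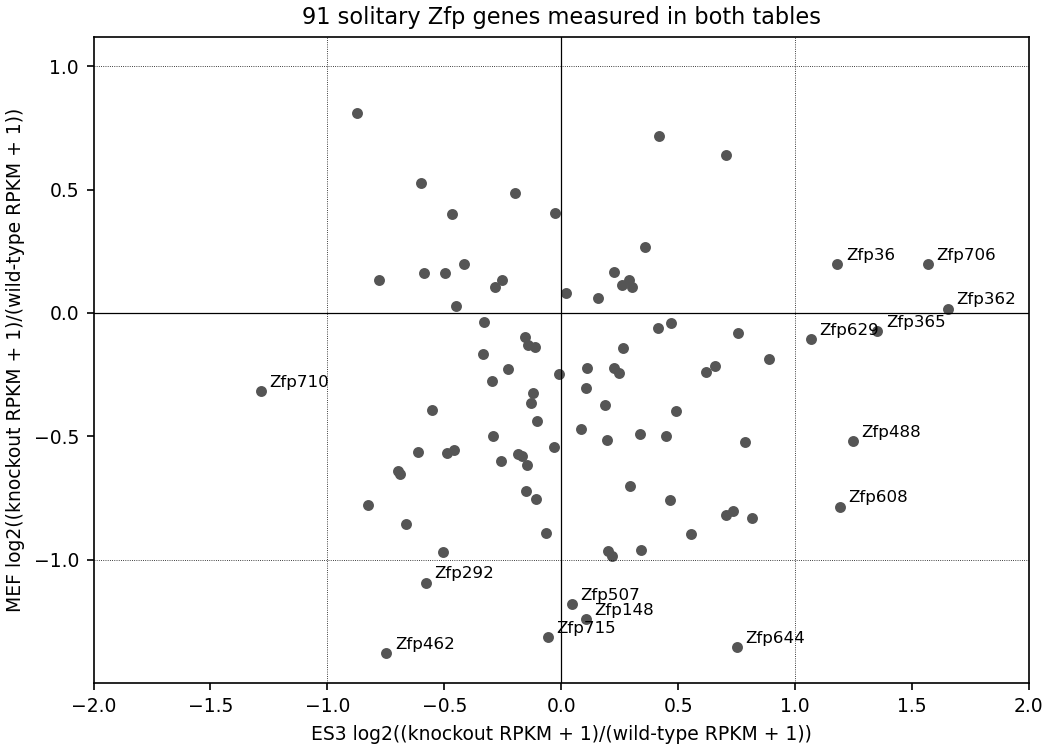
Log2 ratio of knockout to wild type in MEFs (vertical) against ES3 cells (horizontal) for the 91 solitary Zfp genes measured in both tables, 1 point per gene; dotted lines mark 2-fold and genes past 2-fold in either are named. None of these genes passed 2-fold in both, and the matching count over all genes is not given here.

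Across the 2 cell types, 91 genes were measured in both tables, 30 in ES cells alone, 5 in MEFs alone and 12 in neither. Of the 91, 12 had ratios above 0 in both comparisons, 34 above 0 in ES3 cells and below 0 in MEFs, 12 the reverse and 33 below 0 in both. Called in either comparison were 17 genes, and 0 in both. The matching counts over all genes are not given here, so neither the signs nor the lack of overlap are read as a trait of the solitary genes. Of the 12 measured in neither table, Zfp616 was listed at 0 in all 4 libraries and Zfp366 at 0 in both ES3 libraries. The tables were normalized separately, so levels are only set side by side. Of 126 genes measured in either, wild-type RPKM was higher in the ES table for 93 and in the MEF table for 33. These 126 include the 30 measured in the ES table alone and the 5 measured in the MEF table alone. Over all genes, 12023 were measured in the ES table and 10804 in the MEF table, and no matching count of higher levels is given here. Zfp106, which binds RNA, led ES3 wild type at 72.7 RPKM, with 19.0 RPKM in wild-type MEFs. Zfp598, a ubiquitin ligase of collided ribosomes, was at 50.6 RPKM in ES3 and 17.2 RPKM in MEF wild type. Zfp64 (44.7 RPKM), Zfp532 (40.3), Zfp296 (39.4), Zfp207 (39.1), Zfp740 (38.9) and Zfp259 (34.5) followed in ES3 wild type. Zfp36 led MEF wild type at 43.5 RPKM, followed by Zfp622 (19.6), Zfp106, Zfp664 (18.4), Zfp598, Zfp219 (14.7), Zfp330 (14.6) and Zfp91 (14.3). Zfp503, a developmental repressor, was at 0.294 and 0.108 RPKM in knockout and wild-type ES3 cells, and at 12.6 and 13.6 RPKM in knockout and wild-type MEFs.

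By known role the counts were small and stand against 12.5% of all measured genes higher and 3.18% lower in ES3 cells, and 0.981% higher and 4.84% lower in MEFs. In ES3 cells, of 9 genes of RNA or protein fate, 1 was higher (Zfp36), 0 were lower and the median ratio was −0.13. Of 7 promoter-bound activators 6 were measured, none passed 2-fold and the median ratio was −0.06; among them Zfp410, which activates Chd4 transcription, stood at 11.8 RPKM in the knockout and 9.35 RPKM in wild type. The 10 partners of chromatin complexes included 0 higher and 0 lower genes, with a median of −0.21. Zfp644 had a ratio of 0.75 there and Zfp462 of −0.75. Of 10 developmental regulators 6 were measured, with 2 higher (Zfp706, Zfp365), 1 lower (Zfp423) and a median of −0.19. In MEFs the counts higher and lower were 0 and 0 of 9 for RNA or protein fate (median −0.04), 0 and 1 of 6 for promoter-bound activators (−0.50, with Zfp148), 0 and 2 of 10 for partners of chromatin complexes (−0.59, with Zfp644 and Zfp462) and 0 and 1 of 6 for developmental regulators (−0.09, with Zfp292). The partners of chromatin complexes had 9 of 10 ratios below 0 in MEFs, against 75.0% of solitary and 49.7% of all genes. After span centring none of Zfp148, Zfp644, Zfp462 and Zfp292 stood past 2-fold. The MEF medians then were −0.30 for RNA or protein fate, −0.47 for promoter-bound activators, −0.37 for partners of chromatin complexes and −0.18 for developmental regulators, beside −0.36 for all solitary genes.

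In the TRIM28 pathway list 1 of 26 genes was higher and 3 were lower in ES3 cells (3.85% and 11.5%, against 12.5% and 3.18% of all genes), with a median of −0.25, or −0.38 after span centring. Besides Trim28 these were Suv39h1, an H3K9 methyltransferase (22.3 RPKM in the knockout, 8.66 RPKM in wild type, 1.27), Dnmt3l (93.3 RPKM in the knockout, 286 RPKM in wild type, −1.61) and the H3K9me3 reader Cbx1 (37.3 RPKM in the knockout, 88.2 RPKM in wild type, −1.22). In MEFs 0 of 23 were higher and 2 were lower, Trim28 and Atrx (1.30 RPKM in the knockout, 6.22 RPKM in wild type, −1.65; −1.20 centred), which is 8.70% against 4.84% of all genes. The median was −0.46, or −0.21 after span centring. Trim28 is the gene that was removed, so its fall followed from the design, yet the counts and shares of lower genes include it. Apart from Trim28, the lower genes of the list were Dnmt3l and Cbx1 in ES3 cells and Atrx alone in MEFs.

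H3K9me3 regions lay near solitary genes about as often as near genes in general. A knockout region lay within 20 kb of 38 of 138 starts (27.5%, against 30.0% of clustered and 24.3% of all genes), and in the span of 24 genes (17.4%, against 12.1% of clustered and 19% of all genes). A wild-type region lay within 20 kb of 38 starts (27.5%, against 42.9% of clustered and 24.4% of all genes), and in the span of 25 genes (18.1%, against 15.7% of clustered and 16.9% of all genes). Wild-type-only regions, deposited as a list of their own, lay within 20 kb of 27 starts (19.6%, against 32.9% of clustered and 17.2% of all genes) and in 19 spans (13.8%, against 13.6% of clustered and 11.9% of all genes). For wild-type and wild-type-only regions near the start, the solitary share thus lay close to that of all genes and the clustered share lay above both. Each list is 1 call per condition, and no difference between these shares was tested. Within 1 kb of the start, wild-type regions lay at 4 solitary genes, Zfp534, Zfp629, Zfp488 and Zfp353, and knockout regions at 2, Zfp534 and Zfp353. The nearest wild-type-only regions after those of Zfp629 and Zfp488 lay 1.007 kb from the start of Zfp791 and 2.404 kb from that of Zfp414.

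**Figure D3:**
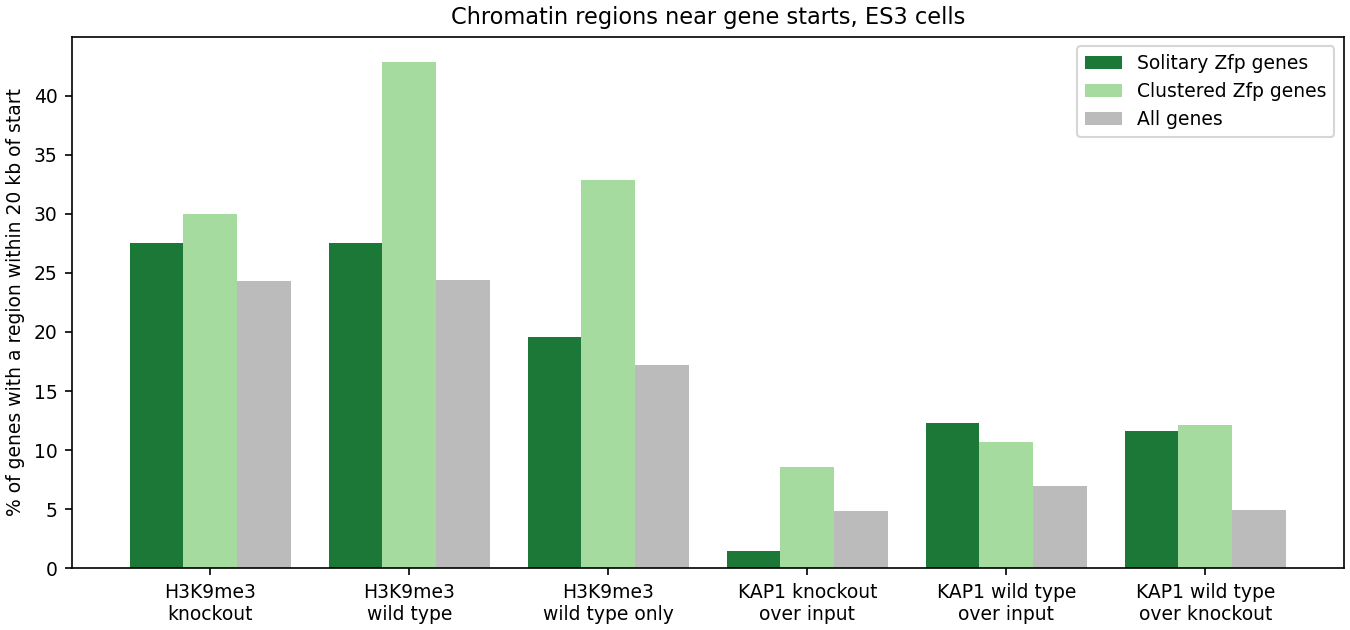
Percentage of genes with a region of each list within 20 kb of the gene start in ES3 cells, for solitary Zfp genes (left bar, n = 138), clustered Zfp genes (middle, n = 140) and all genes (right, n = 17818). KAP1 wild-type-over-input peaks lay near 12.3% of solitary and 6.94% of all genes.

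KAP1 peaks were found near few solitary genes, though near a larger share than of all genes, as was also so for the clustered genes. Peaks called in wild type over input lay within 20 kb of 17 starts (12.3%, against 10.7% of clustered and 6.94% of all genes) and in the span of 6 genes (4.35%, against 5.71% of clustered and 6.07% of all). Peaks called in wild type over knockout lay near 16 starts (11.6%, against 12.1% of clustered and 4.93% of all genes). In the span they lay at 5 solitary genes (3.62%, against 7.86% of clustered and 4.74% of all). Peaks called in the knockout over input, where Trim28 RNA was low, lay near 2 starts (1.45%, against 8.57% of clustered and 4.86% of all). They lay in 6 spans (4.35%, against 6.43% of clustered and 4.62% of all). In or near the solitary genes there were 26 wild-type-over-input peaks at 19 genes, and 21 of them overlapped a wild-type-over-knockout peak. Of the 26, 13 overlapped wild-type H3K9me3, 7 overlapped wild-type-only H3K9me3 and 4 overlapped knockout H3K9me3. No peak lay within 1 kb of a start, the nearest edge being 1.763 kb away at Zfp72. Scores are the authors' values for each peak and ran from 50.1 to 783.72; the median was 70.1, and 7 peaks stood above 100. The highest was 16.8 kb upstream of Zfp367, and the next was 4.04 kb into Zfp629 at 342.12. Zfp704 held 5 peaks in its span, and Zfp775 had 3 within 20 kb of its start, all 3 overlapping wild-type-only H3K9me3.

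H3K9me3 covered 45.891 kb of the summed spans of the solitary genes in the knockout (0.812%) and 84.782 kb in wild type (1.50%). For clustered genes the shares were 0.811% in the knockout and 2.02% in wild type, and for all genes 0.846% in the knockout and 0.889% in wild type. The knockout covered less of 21 spans and more of 12 spans, and 105 genes had no region in the span in either condition. The 2 genes Zfp534 and Zfp462, held 49.9% of the wild-type coverage of solitary genes, so the total rests on few genes.

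**Figure D4:**
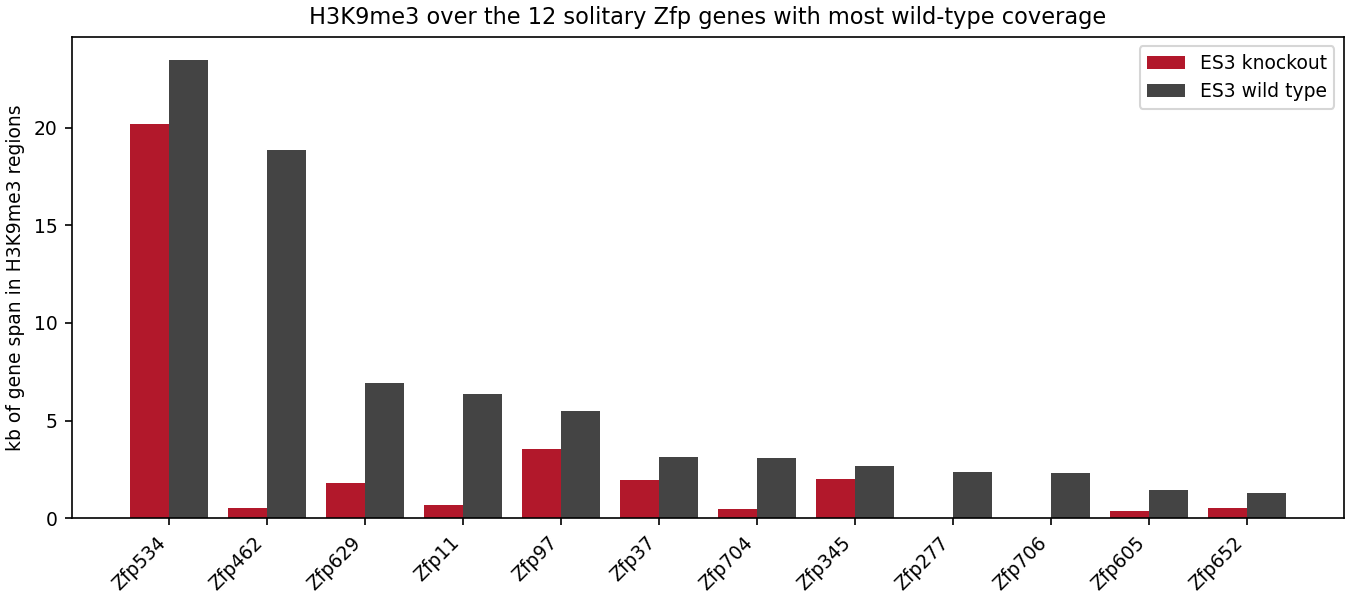
Kilobases of gene span inside H3K9me3 regions in knockout (left bar) and wild-type (right bar) ES3 cells, for the 12 solitary Zfp genes with most wild-type coverage. Zfp462 has 0.523 kb in the knockout and 18.848 kb in wild type; Zfp534 has 20.169 kb in the knockout and 23.470 kb in wild type.

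Genes with large coverage differed in what the knockout left. Zfp534 (29.119 kb span) kept 20.169 kb in the knockout, against 23.470 kb in wild type, and was at 12.5 RPKM in the knockout and 6.97 RPKM in wild type. Zfp462 (mm9 chromosome 4, 54957920 to 55096435) had 0.523 kb in the knockout, against 18.848 kb in wild type, and 4 wild-type-only regions lie in the gene, of which the widest are 10258 and 6400 bp. A KAP1 peak with a score of 119.44 lies 54.8 kb into the gene, inside the 6400 bp region, and Zfp462 RNA was at 13.0 RPKM in the knockout and 22.5 RPKM in wild type. Zfp629 (chromosome 7, 134750545 to 134759311) had 1.803 kb of coverage in the knockout and 6.908 kb in wild type. A wild-type-only region of 4136 bp covers its start. The 1675 bp KAP1 peak named above lies further into the gene, in a wild-type region of 6381 bp that overlaps the 1803 bp knockout region, and its RNA was called higher. Zfp11 had 0.679 kb in the knockout and 6.375 kb in wild type. Its 2 KAP1 peaks, scored 169.92 and 208.44, lie in the same 6375 bp wild-type region, which also overlaps a knockout region. Zfp11 RNA was at 2.13 RPKM in the knockout and 1.91 RPKM in wild type. Zfp706 had 0 kb in the knockout and 2.302 kb in wild type. All 7 wild-type regions within 20 kb of its start are in the wild-type-only list, no knockout region or KAP1 peak was listed there, and its RNA was called higher. Zfp697 had 3.847 kb in the knockout and 1.255 kb in wild type, and Zfp536 had 2.742 kb in the knockout and 0.700 kb in wild type, so coverage was larger in the knockout at both.

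**Figure D5:**
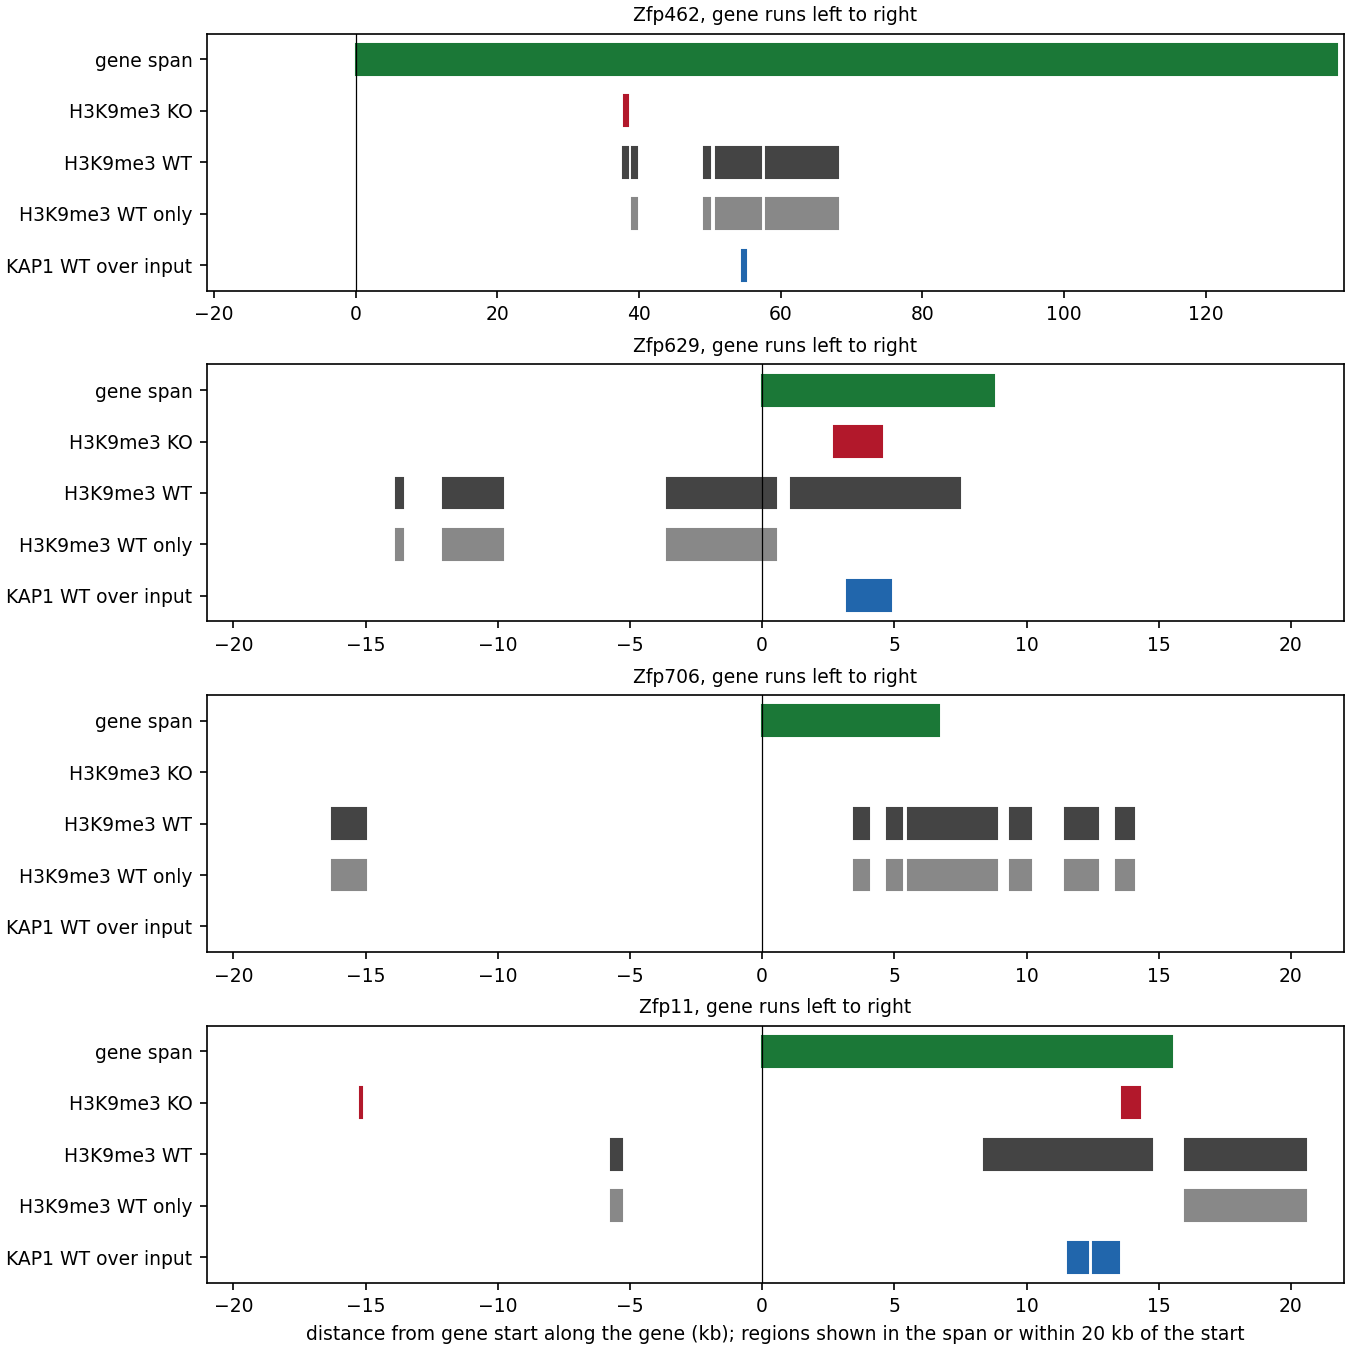
Position of H3K9me3 regions (knockout, wild type, wild type only) and KAP1 peaks (wild type over input) along 4 solitary Zfp genes in ES3 cells, by distance in kb from the gene start, with each gene drawn left to right. Zfp462 has 4 wild-type-only regions in its span; Zfp706 has 7 wild-type-only regions within 20 kb and no KAP1 peak.

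Set against expression, wild-type-only H3K9me3 lay near or in 34 of 138 solitary genes (24.6%, against 34.3% of clustered and 23.2% of all genes). Among these, 31 were measured, of which 4 passed 2-fold upwards in knockout ES3 cells (Zfp362, Zfp488, Zfp629, Zfp706) and 0 downwards, with a median log2 ratio of 0.23 (0.091 after span centring). The 4 are 12.9% of the 31, close to the 12.5% of all measured genes, and 1 of them, Zfp629, was measured only through the knockout. Among the 104 others, 90 were measured, with 5 upwards (5.56%), 2 downwards (2.22%) and a median of 0.03 (−0.046 centred). In MEFs, whose chromatin was not analysed here, the medians for the same genes were −0.52 with the regions and −0.32 without, and after span centring −0.37 and −0.34. KAP1 peaks lay near or in 19 genes, of which 18 were measured, with 1 upwards (Zfp629), 0 downwards and a median of 0.06, equal to the 0.06 of the 103 measured others. Of the 9 genes higher in ES3 cells, 6 had any wild-type H3K9me3 in the span or within 20 kb, as did 48 of the 138 solitary genes (34.8%) and 31.7% of all genes. No difference between these medians was tested.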

How the data were processed

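Duplicate cultures were pooled before RNA extraction (labels' protocols), which leaves 1 library per group. The authors deposited RPKM values per RefSeq transcript in 1 table for ES cells and 1 for MEFs; Bowtie and mm9 are named per the submitters' processing notes, and the counter, versions, strand use and depth are not stated there. H3K9me3 regions and KAP1 peaks were deposited as lists of starts and ends, with a score per KAP1 peak from the authors.

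The transcript of highest mean RPKM stood for each symbol. Rows without a usable symbol (820 and 817) took the reference symbol of their transcript or its name. Ratios are log2((knockout + 1)/(wild type + 1)), which understates the change of low genes. Regions were compared by overlap of 1 bp or more with the gene span, or within 20 kb of its start. Reads that similar zinc finger genes share could be counted for either, for example at Zfp534, Zfp560 and Zfp97, which have another zinc finger gene near. Named genes are Trim28, all genes past 2-fold, the largest and smallest ratios and wild-type levels, the nearest KAP1 peaks and wild-type-only regions, the role lists and up to 4 pathway genes. Zfp534, Zfp697, Zfp616, Zfp366, Zfp526, Zfp62 and Zfp654 fall outside it and were named after their values were seen. The gene set, lists and naming rule were chosen with earlier results of these data known. Protein features and KRAB boxes, the Rex1GFP and H3K27ac libraries and the input libraries were not analysed here. The script was tested on simulated data and run with Python 3.11.15, pandas 2.3.3, numpy 2.4.6 and matplotlib 3.10.9. Alternatives changed the pseudocount, filter, centring, transcript choice, fold threshold, distance rule and region window.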

Additional observations from a re-analysis of the deposited data

Results flagged for a closer look

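In 3 solitary genes measured in both cell types the log2 ratios had opposite signs there. The larger ratio was past 2-fold and the smaller at least 0.5 from zero. Without that second limit Zfp365, Zfp629, Zfp148 and Zfp507 also qualify, with smaller ratios between −0.11 and 0.11. Zfp353 met both limits, with 1.49 in ES3 cells and −0.51 in MEFs, but was under 1 RPKM in both MEF libraries and is not counted. Zfp488 had a log2 ratio of 1.25 in ES3 cells and −0.52 in MEFs, Zfp608 of 1.19 in ES3 cells and −0.78 in MEFs, and Zfp644 of 0.75 in ES3 cells and −1.36 in MEFs. After centring within bins of span the ES3 values were 1.24 for Zfp488, 1.01 for Zfp608 and 0.52 for Zfp644, and the MEF values were −0.69, −0.27 and −0.89 for the same genes. The MEF levels of Zfp488 and Zfp608 were at most 1.70 RPKM in either library. Both passed the 1 RPKM limit in MEFs only through wild type, so their MEF ratios could only lie below 0. Zfp608 passed it in ES3 cells only through the knockout, so its ES3 ratio could only lie above 0. With 1 library per group the difference between the cell types was not tested.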

How the results depend on the processing

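The ES3 counts of 9 higher and 2 lower genes became 17 and 2 with a pseudocount of 0.1 RPKM, 2 and 0 with 5 RPKM and 1 and 0 at a 3-fold threshold. The MEF counts of 0 higher and 6 lower became 1 and 25, 0 and 0, and 0 and 0 in the same settings. Shares of all genes in these settings are not given here, so the counts show only how the calls depend on the setting. The ES3 median of 0.06 turned to −0.11 with a filter at 5 RPKM, to −0.023 centred on the median and to −0.023 centred by span; the cause was not tested. The MEF median of −0.34 became −0.47 with a pseudocount of 0.1 RPKM, −0.15 with 5 RPKM, −0.23 without a filter and −0.19 at 5 RPKM or more, and stayed below 0 in these settings. Genes with wild-type H3K9me3 numbered 38 within 20 kb, 24 within 10 kb, 70 within 50 kb, 103 within 100 kb and 25 in the span. Wild-type-only H3K9me3 numbered 27, 16, 54 and 88 in the same windows, and KAP1 17, 10, 29 and 46, with 6 in the span. Matching shares of all genes are given above for 20 kb and the span, and not for the other windows. Centring on the median of all genes leaves 8 genes higher in ES3 cells, without Zfp629. Depth is unknown and each group has 1 library, so the precision of low values such as those of Zfp560 and Zfp629 cannot be given.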
